A study of Homo sapiens with 16 samples.

Results

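The response of Caco-2 cells to pepsin and trypsin digests was compared between the cultures numbered replicates 1 and 2 and those numbered replicates 3 and 4. All 16 arrays of the series were used, 8 in each pair of replicates. Caco-2 is an established human colon carcinoma line that resembles intestinal epithelium, and the cells were undifferentiated, kept in low serum and stimulated for 6 h on the third day after seeding. The groups were MED-CTL, cells kept in medium, p31-43, cells given 150 µg/ml of a synthetic gliadin peptide, PT, cells given the pepsin and trypsin mixture digested without a substrate, and PT-G, cells given gliadin digested with the same enzymes, with 4 arrays each. PT and PT-G are called the digest arm and MED-CTL and p31-43 the reference arm, so each pair of replicates held 4 arrays of each arm. The study reports that heat inactivated the enzymes once digestion was done, with an activity assay on a trypsin substrate as the check. No endotoxin was found in PT-G per the labels, and no such test of PT is described. Every culture was harvested with trypsin-EDTA, the reference arm included. The labels describe 4 independent experiments with cells a few passages apart and do not name a batch. The pairs of replicates also lay on different slides, so culture, slide and scan cannot be told apart between them. Within a pair, the 4 arrays of an arm were 2 arrays of each of its groups, from 2 of the 4 experiments. The model treated them as 4 independent arrays. With 1 cell line, each p-value measures the spread between these cultures and arrays, and in bulk RNA fewer cells of a type and less RNA per cell cannot be told apart.

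Gliadin is the wheat protein that drives celiac disease, and it is digested with pepsin and trypsin in the laboratory to imitate what reaches the gut. Growth factors and many other signals switch on the ERK pathway of epithelial cells, which first raises transcription factors such as the EGR, FOS and JUN families. These are followed by inhibitors of the same pathway, the DUSP phosphatases and the Sprouty proteins, which close a feedback loop.

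The values are log2 intensities, normalised by the authors with the quantiles method, so that a difference of 1 is a 2-fold difference. The median intensity of an array lay between 153 and 410 over a median background of 48 to 65, and between 27660 and 33947 spots were well above background. Replicates 1 and 2 came from 2 slides scanned on 1 day. Replicates 3 and 4 came from 3 other slides, of which slide 5, with PT replicate 3 and p31-43 replicate 4, was scanned on another day. The spread between the 4 arrays of an arm, as the median SD over all probes, was 0.12 (reference) and 0.0925 (digest) in replicates 1 and 2, and 0.200 and 0.195 in replicates 3 and 4. All 7 epithelial markers looked at, among them VIL1, EPCAM, CDH1 and KRT18, were well above background on all 16 arrays. Among markers of other cell types, PTPRC was above background on 0 arrays, DES on 14, and CD3E, CD14, COL1A1, COL3A1 and PECAM1 on all 16.

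MED-CTL replicates 1 and 2 stood apart from the rest. At 61 probes both arrays lay more than 1 log2 unit below each of the other 14 arrays and at 8 probes more than 1 above, against 0 to 2 probes for any other same-group pair. None of these probes passed the threshold in both pairs of replicates. The counts below are therefore also given without both arrays.

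The digest effect was the mean of the 4 digest arrays minus the mean of the 4 reference arrays, fitted for both pairs in 1 limma model over 40967 probes. A probe was called at a Benjamini-Hochberg adjusted p under 0.05. In replicates 1 and 2 the effect was called at 1051 probes (2.57% of those tested), 527 higher and 524 lower in the digest arm. Replicates 3 and 4 gave 1021 calls (2.49%), 565 higher and 456 lower, while under median scaling 317 of 461 were higher. Called in both pairs and in the same direction were 639 probes (1.56%), 371 of them higher (0.906%) and 268 lower (0.654%). Those with a gene symbol stood for 469 genes, and 0 probes were called in opposite directions by limma. These 639 were 60.8% of the calls of replicates 1 and 2 and 62.6% of those of replicates 3 and 4. Of the probes called higher in replicates 1 and 2, 70.4% were called higher in the other pair, and of those called lower 51.1% were called lower there. Whether called or not, 99.5% of the calls of replicates 1 and 2 had an effect of the same sign in replicates 3 and 4, and 99.7% the other way round, beside 65.2% of all probes. The contrasts use no array in common, but the model took 1 spread per probe from the arrays of both pairs. All arrays were also normalised together. A probe with a small spread was thus favoured in both pairs, and the calls of the pairs are not independent. With each pair fitted alone, replicates 1 and 2 gave 3663 calls, replicates 3 and 4 gave 211, and 187 were shared. Across all probes, which are not independent either, the effects of the pairs had a Pearson correlation of 0.60. Leaving out both MED-CTL arrays that stood apart left 278 calls in replicates 1 and 2 and 234 in both pairs, and leaving out slide 5 left 549 in replicates 3 and 4 and 394 in both.

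**Figure D1:**
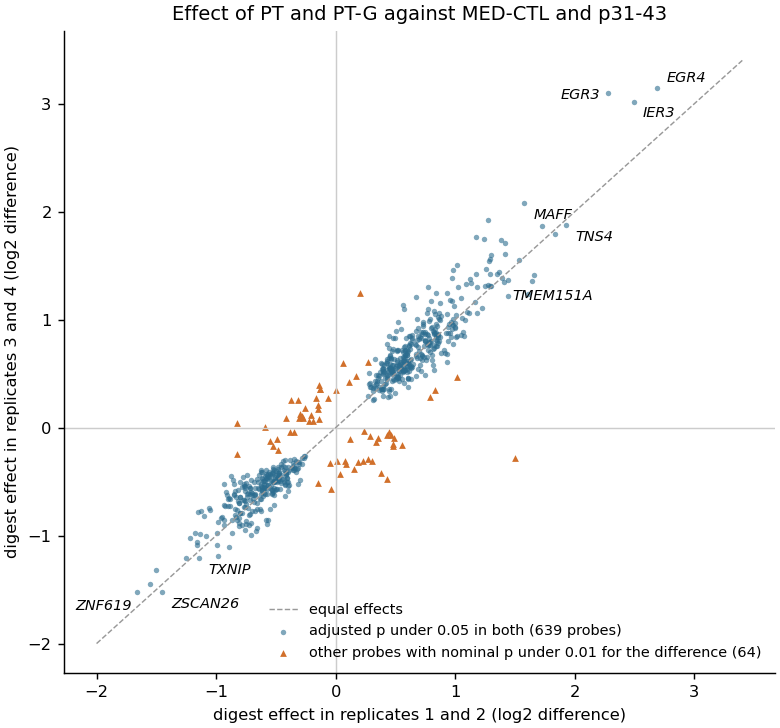
Digest effect (log2 difference between the digest and the reference arm) in replicates 1 and 2 on the horizontal axis and in replicates 3 and 4 on the vertical axis, 1 point per probe. Circles are the 639 probes called in both pairs, triangles the other probes whose difference between pairs had a nominal p under 0.01, and the dashed line marks equal effects. The circles lie in the upper right and lower left fields, with EGR4, IER3 and EGR3 at the upper end.

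Early response transcription factors led the genes that rose in both pairs. Values are given in the order MED-CTL, p31-43, PT and PT-G, the lower replicate number first. The 12 genes that rose and 8 that fell named by size were picked among probes whose arms did not overlap in either pair. Their lack of overlap was thus set by that choice. It was found at 2.95% of all probes, and at 95.4% of the higher and 92.5% of the lower probes called in both pairs. EGR4, a factor of the early growth response family, gave 9.99, 7.83, 8.61 and 10.09 on the reference arrays of replicates 1 and 2 and 11.62, 11.95, 11.59 and 12.13 on the digest arrays. For EGR4 in replicates 3 and 4, the reference arrays gave 8.50, 7.61, 8.19 and 7.62 and the digest arrays 10.80, 11.54, 11.25 and 10.92. Every digest array lay above every reference array of its pair, and the reference arrays of slide 2, MED-CTL replicate 1 and p31-43 replicate 2, were the highest of the 8. The effect was 2.69 (SE 0.41, limma, adjusted p = 0.00274) in replicates 1 and 2 and 3.15 (adjusted p = 0.000897) in replicates 3 and 4. The difference of 0.46 had a 95% interval from −0.80 to 1.71.

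EGR3, of the same family, gave 7.21, 6.09, 6.39 and 7.39 against 8.92, 9.13, 8.69 and 9.45 in replicates 1 and 2. For EGR3 in replicates 3 and 4, the values were 6.95, 6.24, 6.82 and 6.40 against 9.03, 9.78, 10.19 and 9.80. The arms did not overlap in either pair, and 3 of the 4 reference arrays of replicates 1 and 2 were well above background. The effects of 2.27 and 3.09 (SE 0.30, limma, adjusted p = 0.00118 and 9.3e-05) differed by 0.82 (95% interval −0.10 to 1.74). FOSL1, a subunit of AP-1, rose by 1.84 and 1.79, and its other probe by 1.66 and 1.42. Its first call was lost without MED-CTL replicates 1 and 2, and the second with each pair fitted alone. JUNB, another AP-1 subunit, rose by 1.42 and 1.61, while its dimmer probe gave 1.33 and 0.77 and was called in neither pair. NR4A1, an orphan nuclear receptor, rose by 1.44 and 1.37, with 0.05 and −0.05 for its other probe.

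Genes tied to the ERK pathway rose as well. IER3, an early response gene and ERK target known to prolong ERK activity, gave 11.93, 11.25, 11.72 and 12.18 on the reference arrays and 14.24, 14.17, 14.19 and 14.44 on the digest arrays of replicates 1 and 2. For IER3 in replicates 3 and 4, the values were 11.10, 11.90, 11.10 and 11.93 against 14.34, 14.62, 14.34 and 14.78. The gap between the arms was wider than the range within either arm in both pairs, with effects of 2.49 and 3.01 (SE 0.22, limma, adjusted p = 4.37e-05 and 1.14e-05). DUSP5, a nuclear phosphatase of ERK, gave 10.30, 9.54, 9.65 and 10.08 against 11.69, 11.41, 11.57 and 11.79 in replicates 1 and 2, and 9.76, 9.57, 9.67 and 9.29 against 11.29, 11.36, 11.68 and 11.46 in replicates 3 and 4. The arms of this gene were apart in both pairs, and the effects of 1.72 and 1.87 differed by 0.15 (95% interval −0.33 to 0.63). SPRY4, a Sprouty inhibitor of receptor tyrosine kinase signalling, rose by 1.39 and 1.74 (SE 0.13, limma, adjusted p = 5.94e-05 and 1.14e-05).

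The other genes named by size were of several kinds. TNS4, a tensin of focal adhesions, gave 9.24, 8.09, 7.98 and 9.42 against 10.06, 11.05, 10.09 and 11.24 in replicates 1 and 2. For TNS4 in replicates 3 and 4, the values were 9.24, 8.57, 8.62 and 8.46 against 10.39, 10.13, 11.08 and 10.80. The 4 arrays of slide 2, MED-CTL replicate 1 and replicate 2 of the other groups, were the higher ones of their arm in the first pair. The effects were 1.93 and 1.88 (SE 0.37, limma, adjusted p = 0.0115 and 0.0131), and the first call was lost without PT-G replicate 2 or without both MED-CTL arrays of its pair. The call in replicates 3 and 4 was lost without slide 5 and with the 4 conditions fitted separately. MAFF, a small MAF transcription factor, rose by 1.58 and 2.08, with a difference of 0.51 whose 95% interval ran from 0.06 to 0.95. EDN1, the peptide endothelin 1, rose by 1.41 and 1.71. TMEM151A, a membrane protein, had the closest effects of these genes, 1.39 in each pair, with a 95% interval of the difference from −0.26 to 0.26.

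**Figure D2:**
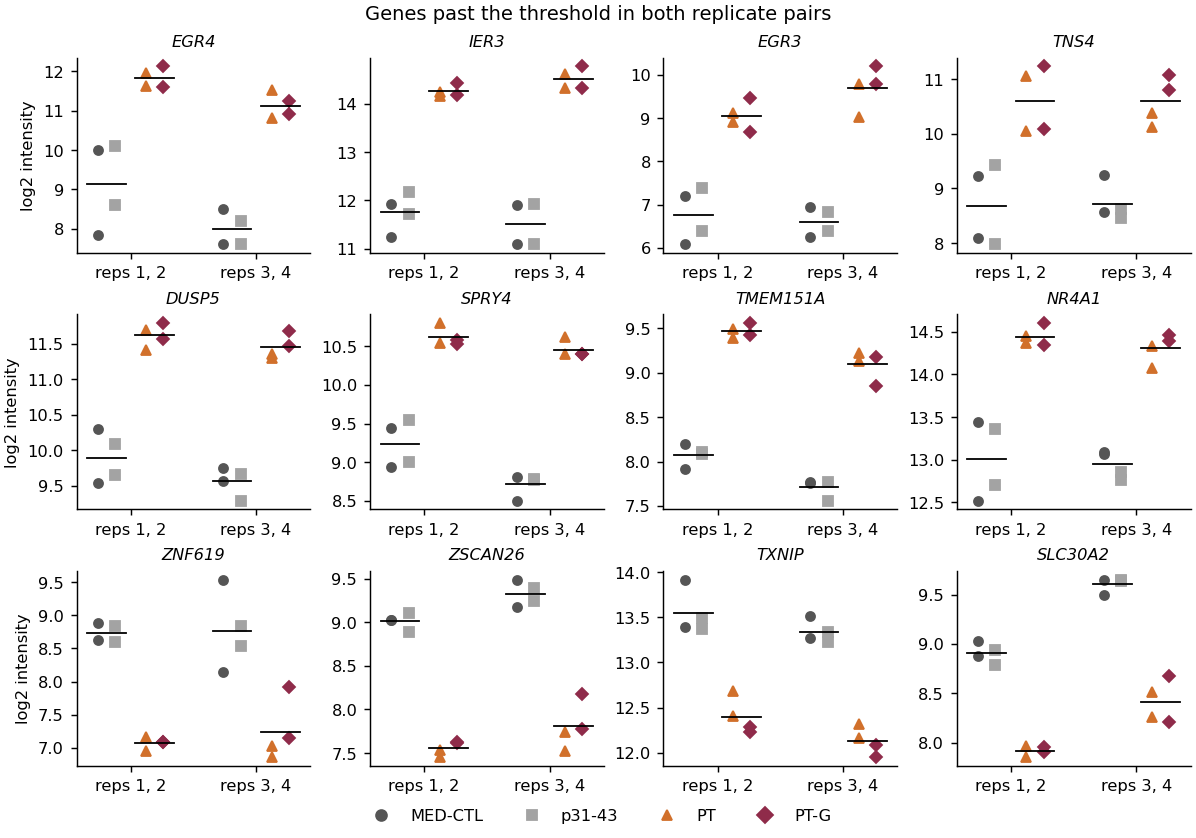
Log2 intensity on each of the 16 arrays for 12 genes called in both pairs, with replicates 1 and 2 at the left and 3 and 4 at the right of each panel. Symbols give the group, the bars the mean of the 4 reference or 4 digest arrays, and the vertical axes differ between panels. The digest arrays lie above the reference arrays for the upper 8 genes and below them for ZNF619, ZSCAN26, TXNIP and SLC30A2, as the choice of these genes required.

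The genes that fell in both pairs were led by zinc finger genes. ZNF619 gave 8.63, 8.88, 8.83 and 8.59 on the reference arrays and 7.16, 6.95, 7.08 and 7.09 on the digest arrays of replicates 1 and 2. For ZNF619 in replicates 3 and 4, the values were 9.54, 8.14, 8.84 and 8.53 against 7.03, 6.86, 7.92 and 7.14. The arms did not overlap, but MED-CTL replicate 3 and PT-G replicate 3 were both high within theirs, and the SD of the reference arm was wider than in the other pair. The effects were −1.66 and −1.52 (SE 0.26, limma, adjusted p = 0.00274 and 0.00482), and the first was not called without both MED-CTL arrays of its pair, nor the second with each pair fitted alone. ZSCAN26, which carries a SCAN domain beside its zinc fingers, gave 9.03, 9.03, 9.11 and 8.89 against 7.54, 7.45, 7.62 and 7.62 in replicates 1 and 2, and 9.49, 9.18, 9.25 and 9.39 against 7.74, 7.53, 8.18 and 7.77 in replicates 3 and 4. Its effects of −1.45 and −1.52 differed by −0.07 (95% interval −0.41 to 0.28), and its other probe gave −1.55 and −1.45.

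TXNIP, an inhibitor of thioredoxin and of glucose uptake, gave 13.39, 13.92, 13.49 and 13.37 against 12.41, 12.69, 12.28 and 12.23 in replicates 1 and 2. For TXNIP in replicates 3 and 4, the values were 13.51, 13.28, 13.34 and 13.23 against 12.32, 12.16, 11.95 and 12.08. All digest arrays lay below all reference arrays, with effects of −1.14 and −1.21 (SE 0.13, limma, adjusted p = 0.000342 and 0.000194). SLC30A2, a zinc transporter, had a higher level in replicates 3 and 4, 9.50 to 9.65 in the reference arm against 8.79 to 9.03, and fell in both pairs, by 0.99 and 1.19. ELAC1, an endonuclease of tRNA maturation, had effects of −1.16 and −1.08, of which the first was not called without both MED-CTL arrays of its pair, and the second without PT replicate 4, PT-G replicate 4 or slide 5. PRKCQ, a protein kinase C, fell by 1.00 and 1.09, and IRAG2 by 1.14 and 0.99, the last not called with each pair fitted alone. The DIDO1 probe of the list changed by −1.25 and −1.21, while another probe of that gene rose by 0.86 and 0.79 and the remaining 2 were called in neither pair, so DIDO1 has no single direction.

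Over the 639 probes called in both pairs, the median absolute effect was 0.62 in each pair. The higher probes had a median of 0.63 in replicates 1 and 2 and 0.71 in replicates 3 and 4, and 238 of 371 were larger in replicates 3 and 4. The lower probes had medians of −0.61 and −0.55, and 99 of 268 were larger in size in replicates 3 and 4. For the higher probes the reference mean was lower in replicates 3 and 4 at 248 of 371 (66.8%, median shift −0.13), and the digest mean at 203 (54.7%, median shift −0.05), beside 50.5% and 49.2% of all probes. PT and PT-G gave like medians for the higher probes, 0.64 and 0.64 in replicates 1 and 2 and 0.66 and 0.72 in replicates 3 and 4. For the lower probes they were −0.60 and −0.62, then −0.57 and −0.55.

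Gene lists were described by their calls and medians, beside medians of 0.00 and −0.01 and 1.56% called in both pairs over all probes. Of 23 early response transcription factors, 10 rose in both pairs (43.5%), and the medians were 0.95 and 1.10. The 10 were FOSL1, JUNB, ATF3, EGR3, EGR4, NR4A1, NR4A3, KLF6, KLF10 and MAFF, and MYC and KLF2 were called in replicates 3 and 4. FOS, EGR1 and JUN, the best known members, were called in neither pair. These calls take no account of the run, meaning here the slide in replicates 1 and 2 and the replicate number in replicates 3 and 4. With a run block, added after the values were seen, 13 of the 23 rose in both pairs, JUN was called in replicates 3 and 4 (limma, adjusted p = 0.00875) and FOS and EGR1 in neither. FOS gave 14.57, 12.17, 13.62 and 14.25 against 14.62, 14.51, 14.42 and 14.88 in replicates 1 and 2, and 13.34, 13.34, 13.90 and 13.17 against 13.62, 13.37, 14.33 and 13.83 in replicates 3 and 4. MED-CTL replicate 2 was far below MED-CTL replicate 1, the arms overlapped in both pairs, and the effects were 0.96 and 0.35 (SE 0.39). EGR1 gave effects of 0.95 and 0.30 (SE 0.53) and JUN of 0.53 and 1.15 (SE 0.37), with MED-CTL replicate 3 at 15.92 for EGR1 and 10.35 for JUN, against 13.74 and 12.37 for MED-CTL replicate 4. For JUN both digest arrays of each run lay above both reference arrays of that run.

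The promoters of MAFF, NR4A3 and HSPA6 are shown because these early response and stress genes rose in both pairs and the letters that AP-1, CREB or heat shock factors are known to bind stand in them. They are the 250 bases before the start in RefSeq's GRCh38.p14 annotation, all on the plus strand, with the matches in capitals. MAFF lies at chr22:38201744-38201993, with the cAMP response element TGACGTCA starting 54 bases before the gene, while the window of another annotated MAFF start, at chr22:38202770-38203019, holds no motif searched. NR4A3 lies at chr9:99821635-99821884, with the shorter core TGACGTC at 83 bases. HSPA6, a heat shock protein of the HSP70 family, lies at chr1:161524290-161524539, with the AP-1 site TGACTCA on the other strand at 244 and 139 bases and the heat shock pair GAANNTTC at 180 and 69 bases.
MAFF: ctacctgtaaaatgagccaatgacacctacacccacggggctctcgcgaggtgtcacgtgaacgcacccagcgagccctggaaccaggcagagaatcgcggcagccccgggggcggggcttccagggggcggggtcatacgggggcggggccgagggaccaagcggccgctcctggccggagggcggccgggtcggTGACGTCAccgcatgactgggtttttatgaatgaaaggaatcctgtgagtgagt
NR4A3: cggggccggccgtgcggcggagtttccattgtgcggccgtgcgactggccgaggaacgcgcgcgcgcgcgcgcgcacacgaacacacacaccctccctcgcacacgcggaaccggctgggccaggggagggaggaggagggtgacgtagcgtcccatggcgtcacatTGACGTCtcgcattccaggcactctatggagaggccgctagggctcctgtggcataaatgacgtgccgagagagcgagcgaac
HSPA6: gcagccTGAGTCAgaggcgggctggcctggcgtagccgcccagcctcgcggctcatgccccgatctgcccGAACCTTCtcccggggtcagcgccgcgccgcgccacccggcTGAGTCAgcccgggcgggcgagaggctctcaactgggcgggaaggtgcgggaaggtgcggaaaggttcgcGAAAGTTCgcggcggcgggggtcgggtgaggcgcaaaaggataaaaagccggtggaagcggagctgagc

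Both strands were searched, and the shorter core overlaps every full element. The core stood in 5.18% of the 328 promoters of genes that rose in both pairs, in 0.897% of the 223 of genes that fell and in 3.12% of all 35114. The full element stood in 2.44%, 0.448% and 1.65%, the AP-1 site in 3.96%, 2.24% and 4.20%, and the heat shock pair in 6.71%, 3.14% and 5.78%. A match is a run of letters, not a measured site. NR4A3, an orphan nuclear receptor, gave 6.49, 6.45, 6.54 and 6.53 against 7.94, 7.48, 7.73 and 7.82 in replicates 1 and 2, and 6.65, 6.25, 6.47 and 6.44 against 7.70, 8.49, 8.30 and 8.29 in replicates 3 and 4. No array of one arm reached the other, and the effects of 1.24 and 1.75 differed by 0.50 (95% interval 0.06 to 0.94). HSPA6 gave 6.85, 7.40, 7.03 and 6.86 against 8.90, 8.51, 8.73 and 8.56, and 6.69, 6.82, 6.53 and 6.97 against 8.09, 8.37, 7.95 and 8.02 in replicates 3 and 4. It rose by 1.64 and 1.36 (SE 0.14, limma, adjusted p = 3.18e-05 and 0.000129), and 1 of 15 heat shock genes was called in both pairs, against 4 with a run block.

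Of 19 feedback and early genes of ERK and related signalling, 11 rose in both pairs (57.9%), with medians of 0.79 and 1.00 and a median difference of 0.21 between pairs, beside 0.00 over all probes. They were DUSP4, DUSP5, DUSP6, SPRY1, SPRY2, SPRY4, IER3, ERRFI1, NAB2, RGS2 and RGS16. Not all of them inhibit ERK, since IER3 prolongs its activity, NAB2 represses EGR factors and the RGS proteins act on G proteins. DUSP6, the cytoplasmic ERK phosphatase, gave 12.97, 12.25, 12.45 and 12.88 against 13.98, 13.85, 13.91 and 13.92 in replicates 1 and 2. For DUSP6 in replicates 3 and 4, the values were 12.41, 12.04, 11.79 and 11.66 against 13.60, 13.77, 14.12 and 14.10. The digest arrays stood at like levels in both pairs while the reference arrays lay lower in replicates 3 and 4, and the effects of 1.28 and 1.92 differed by 0.64 (95% interval 0.09 to 1.20). ERRFI1, which binds and inhibits the EGF receptor, rose by 0.97 and 1.17, and NAB2 by 1.08 and 0.99.

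Of 12 chemokines and cytokines, 5 rose in both pairs, CXCL1, CXCL8, CCL20, LIF and IL11. CXCL1, a neutrophil attractant, gave 9.82, 9.55, 9.32 and 9.86 against 10.93, 10.67, 11.06 and 11.03 in replicates 1 and 2, and 8.67, 8.23, 8.22 and 8.46 against 10.10, 10.22, 9.88 and 9.56 in replicates 3 and 4. Its level was lower in replicates 3 and 4 in both arms, and the effects of 1.28 and 1.54 differed by 0.26 (95% interval −0.22 to 0.74). The CXCL8 probe was not well above background on any reference array, so its fold is only a bound. IL11 rose by 1.10 and 1.07 and LIF by 0.99 and 1.12. Of 8 mRNA decay regulators, ZFP36, BTG2 and BTG3 rose in both pairs. Of 8 EGF receptor ligands HBEGF did, of 13 NF-kB genes BCL3 and ICAM1, of 17 adhesion and migration genes TNS4, PLAUR and EPHA2, and of 13 clock genes NR1D1 and BHLHE40. PFKFB3 and XBP1 were the single members called in both pairs among the 16 hypoxia and 16 unfolded protein response genes.

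Lists with 0 members called in both pairs by limma were those of 15 SRF and YAP targets, 11 NRF2 targets, 10 metallothionein genes with SLC30A1, 18 DNA replication genes, 13 mitosis genes, 13 interferon genes and 7 ID, HES1 and inhibitory SMAD genes. With a run block, 1 SRF or YAP target, 1 metallothionein list gene, 2 replication genes and 1 of the ID list were called in both pairs. In the replication list POLD3 was called lower in replicates 1 and 2 and CDT1 in replicates 3 and 4, with list medians of −0.22 and −0.23. ID1 and ID2, inhibitors of helix-loop-helix factors, were called higher in replicates 3 and 4, at 0.57 and 0.79 against 0.36 and 0.61. The 5 genes measured by qRT-PCR were chosen on these arrays, KLF4, SPRED1 and CEBPA for PT-G. UQCC2 and RELA were chosen for p31-43, a reference group here. The study chose them at a nominal p under 0.01 against MED-CTL over all replicates, not at an adjusted p in each pair. It also took genes that PT had not affected on its arrays, whereas PT belongs to the digest arm here. The contrast thus differs from the study's as well as the threshold, and the calls below do not test its choice. Its qRT-PCR gave like values for the PT-G genes, under PT as well, and did not reproduce those chosen for p31-43. Here 0 of the 5 were called in both pairs by limma. CEBPA was lower in replicates 3 and 4 at −0.61 (limma, adjusted p = 0.0405) against −0.56 (adjusted p = 0.058), and with a run block KLF4 was called higher and CEBPA lower in both pairs. Of 8 markers of other cell types COL3A1 was called, at −0.50 in replicates 3 and 4 and −0.40 in the other pair, and 0 of 7 epithelial markers were.

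Zinc finger genes were the largest list, 403 genes with a ZNF symbol, and 17 of them fell and 6 rose in both pairs (46 and 7 with a run block), with medians of −0.09 and −0.13. ZNF777 fell by 1.09 and 1.00, with −0.93 and −0.90 for its other probe, and ZNF839 and ZNF414 had effects of −0.86 and −0.97, and −0.81 and −0.84. ZNF143, an activator of many promoters, went the other way and rose by 1.27 and 1.32 (SE 0.09, limma, adjusted p = 8.95e-06 and 8.63e-06).

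**Figure D3:**
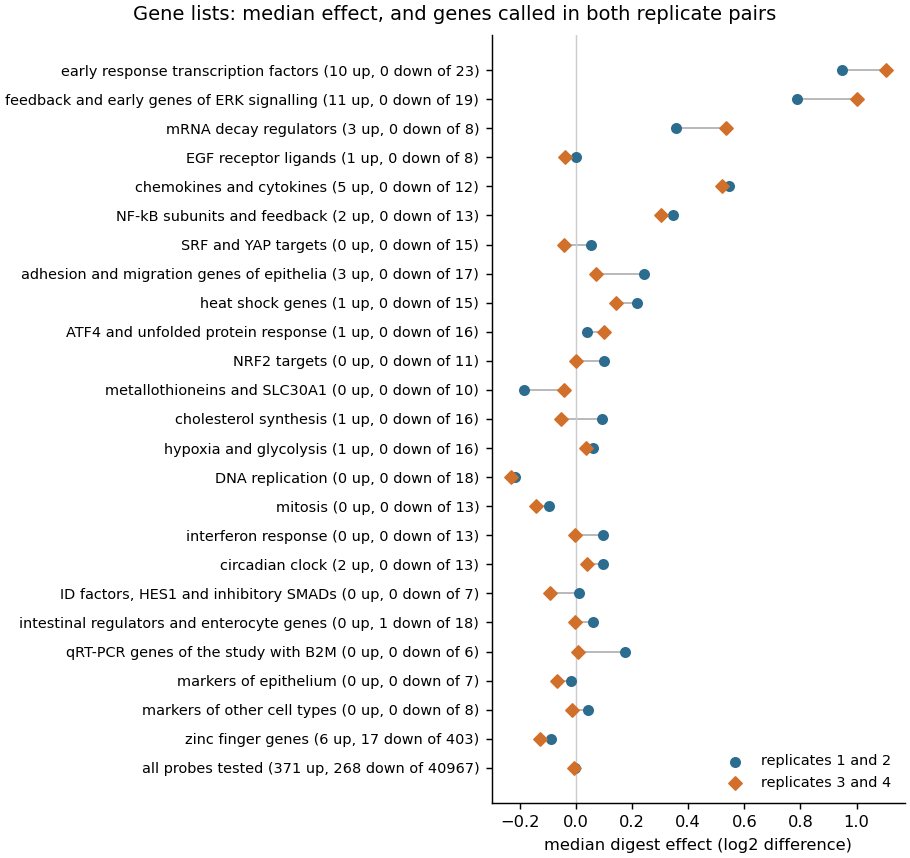
Median digest effect (log2 difference) over the members of each gene list in replicates 1 and 2 (circles) and in replicates 3 and 4 (diamonds), with the number of members called higher and lower in both pairs after each name. The ERK feedback and early genes and the early response transcription factors lie farthest to the right, at 0.79 to 1.10, and all probes tested lie at 0.

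The difference of the digest effect between the pairs was called at 0 probes (0%) by limma, and the smallest adjusted p was 0.9999. At an unadjusted p under 0.05 there were 654 probes (1.60%), and under 0.01, the study's threshold, 74 (0.181%), 44 with a larger value in replicates 3 and 4 and 30 with a smaller one. Both are smaller shares than the thresholds themselves. Blocking by run, which the arms shared, took the count under 0.01 to 272, and the difference was still called at 0 probes. The values that follow are without this block. The median half-width of the 95% interval of the difference was 0.38 over all probes and 0.33 over the 639 probes called in both pairs, and at the adjusted threshold larger differences than these were not called either. Among the 639, the median absolute difference was 0.09 and the interval included 0 at 610. A nominal p was under 0.05 at 29 of them and under 0.01 at 10, larger shares than the 1.60% and 0.181% of all probes. The 639 were chosen with the same estimate of the spread, so these shares are no test of a difference.

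Probes called in 1 pair only were not thereby shown to differ. Of the 412 called in replicates 1 and 2 only, 407 had the same sign in the other pair, 318 had a nominal p under 0.05 there, and 15 (3.64%) had a nominal p under 0.01 for the difference. Of the 382 called in replicates 3 and 4 only, the numbers were 379, 318 and 12 (3.14%). Choosing probes called in 1 pair favours those with a difference, so these shares are not set against the 0.181% of all probes.

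The genes that differed most between the pairs are given as values, since none passed the adjustment (limma, adjusted p = 0.9999 each). Above 0 they included feedback genes. SPRY2, a Sprouty inhibitor, gave 11.68, 11.52, 11.62 and 11.91 against 12.22, 12.28, 12.25 and 12.24 in replicates 1 and 2. For SPRY2 in replicates 3 and 4, the values were 11.23, 11.26, 11.08 and 11.39 against 12.26, 12.43, 12.16 and 12.66. All digest arrays lay above all reference arrays in both pairs, at much the same level, and the reference arrays lay lower in replicates 3 and 4. It rose in both pairs, by 0.56 and 1.13 (limma, adjusted p = 0.0107 and 6.58e-05), with a difference of 0.57 (95% interval 0.25 to 0.89). SPRY1, of the same family, rose by 0.57 and 1.10, with a difference of 0.52 (95% interval 0.15 to 0.90) that lost its nominal p under 0.01 in 27 of 34 alternatives. The probe of DUSP5P1, a pseudogene of DUSP5 whose transcripts may share sequence with it, rose by 0.67 and 1.21, while its other probe gave 0.27 and 0.46.

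SFTPB, which encodes lung surfactant protein B, was dim, and its difference of 1.05 (95% interval 0.58 to 1.51) became 0.75, with no nominal p under 0.01, when outlier spots were kept. It gave 6.18, 6.34, 6.13 and 6.25 against 6.23, 6.45, 6.41 and 6.63 in replicates 1 and 2, where 1 reference array and 3 digest arrays were well above background. For SFTPB in replicates 3 and 4, the values were 6.35, 6.52, 6.27 and 6.19 against 7.56 on PT replicate 4 and 8.01 and 7.17 on PT-G, with PT replicate 3 left out as an outlier spot and 2 of the 4 reference arrays well above background. The digest arrays were thus apart from the reference arrays in replicates 3 and 4 (effect 1.25, limma, adjusted p = 0.000897) and overlapped them in the other pair (0.20, adjusted p = 0.767).

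Several genes were called lower in replicates 1 and 2 and had effects between −0.25 and 0.09 in replicates 3 and 4. ZCCHC17 gave 11.76, 12.08, 11.99 and 11.80 against 11.56, 11.21, 11.45 and 11.05 in replicates 1 and 2, and 11.91, 11.71, 11.59 and 11.85 against 11.60, 12.06, 11.62 and 11.83 in replicates 3 and 4. The arms were apart in the first pair and overlapped in the other, with effects of −0.59 and 0.01 (difference 0.60, 95% interval 0.21 to 0.99), and its 2 other probes gave −0.24 and −0.13, and −0.58 and 0.03. SLC25A12, the mitochondrial aspartate and glutamate carrier, had effects of −0.82 and −0.25, but −0.49 and −0.43 on its other probe. PIK3R3, a regulatory subunit of PI3 kinase, had a reference level of 7.87 to 8.01 in replicates 1 and 2 and of 6.42 to 6.83 in replicates 3 and 4, and effects of −0.41 and 0.09. Its other probe gave −0.04 and −0.10. FABP6, an intestinal bile acid binding protein, GNG12, a G protein subunit, and PHF8, a histone demethylase, had values of −0.38 and 0.26, −0.14 and 0.36, and −0.13 and 0.35, none of which passed in either pair.

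**Figure D4:**
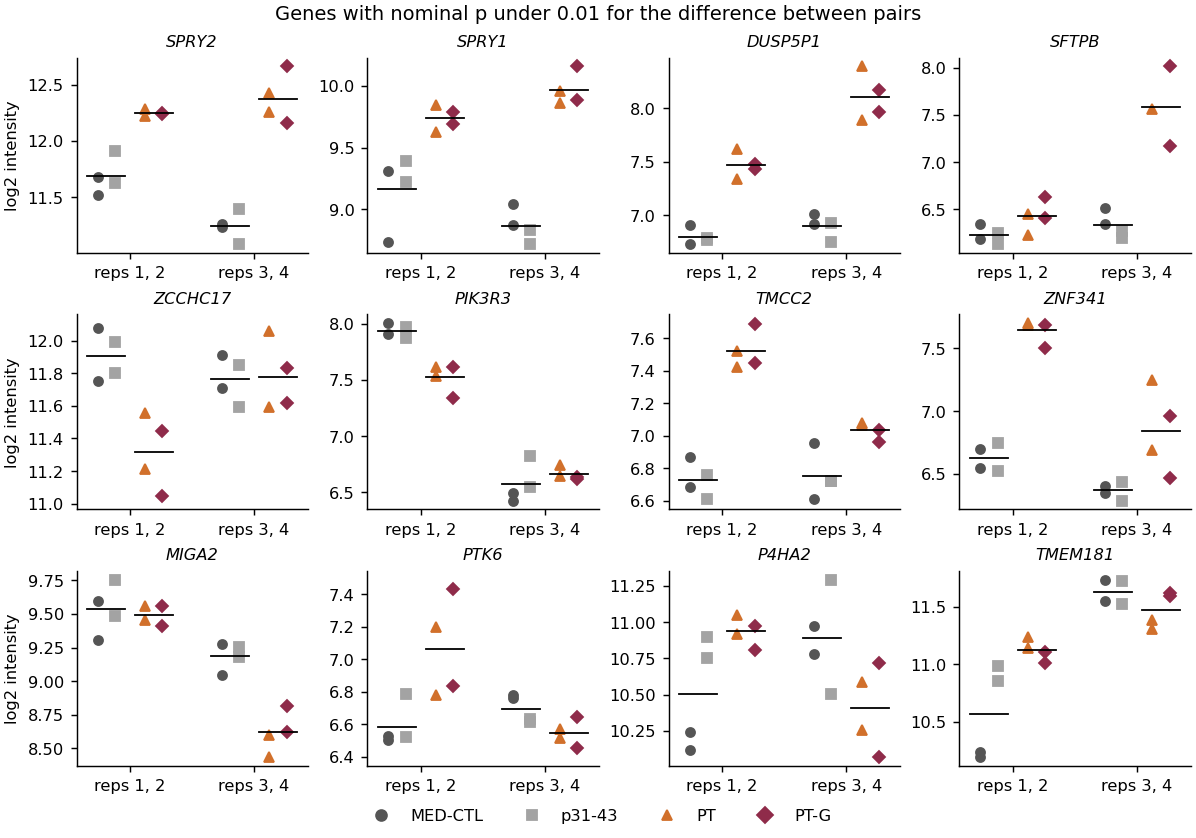
Log2 intensity on each array for 12 genes whose difference between the pairs had a nominal p under 0.01, drawn as for the genes called in both pairs, with 3 digest arrays for SFTPB in replicates 3 and 4. SPRY2 shows digest arrays at like levels over lower reference arrays in replicates 3 and 4. For SPRY1 the reference mean is lower and the digest mean higher in replicates 3 and 4. P4HA2 and TMEM181 show MED-CTL replicates 1 and 2 below the other arrays of their pair.

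Below 0, 2 genes were called higher in replicates 1 and 2 alone. ZNF341, a zinc finger transcription factor, gave 6.70, 6.55, 6.75 and 6.53 against 7.70, 7.68, 7.50 and 7.69 in replicates 1 and 2. For ZNF341 in replicates 3 and 4, the values were 6.35, 6.40, 6.44 and 6.29 against 7.25, 6.69, 6.96 and 6.47. The digest arrays spread more widely in replicates 3 and 4, where replicate 3 of both digests was higher than replicate 4. Its effects were 1.01 and 0.47, a difference of −0.54 (95% interval −0.92 to −0.15), and its other probe gave 0.83 and 0.35. TMCC2 gave 6.87, 6.69, 6.76 and 6.61 against 7.52, 7.42, 7.45 and 7.69, then 6.61, 6.96, 6.72 and 6.72 against 7.08, 7.07, 7.04 and 6.96 in replicates 3 and 4. Its arms were apart in the first pair and nearly touched, at 6.96, in the other, with effects of 0.79 and 0.28 (difference −0.50, 95% interval −0.75 to −0.25), and its other probe was not well above background on any array.

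MIGA2, a protein of mitochondrial fusion, was called in replicates 3 and 4 alone. It gave 9.30, 9.60, 9.76 and 9.48 against 9.56, 9.46, 9.56 and 9.41 in replicates 1 and 2, and 9.04, 9.27, 9.18 and 9.25 against 8.60, 8.43, 8.82 and 8.62 in replicates 3 and 4. The arms overlapped in the first pair and were apart in the other, with effects of −0.04 and −0.57 (limma, adjusted p = 0.00596 for the latter), and 0.05 and −0.36 on its other probe. PTK6, a tyrosine kinase of epithelia, was well above background on 3 of the 4 digest arrays of replicates 3 and 4 and on all other arrays, with effects of 0.48 and −0.15. PRPF40B, a splicing factor, GPR3, a receptor, SIRT7, a sirtuin, and TRMT2A, a tRNA methyltransferase, had differences between −0.62 and −0.53, and none was called in either pair.

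P4HA2 and TMEM181 were low on the MED-CTL arrays that stood apart. P4HA2, a collagen prolyl hydroxylase, gave 10.12 and 10.24 on MED-CTL replicates 1 and 2, and 10.90 and 10.75 on p31-43, 11.05 and 10.91 on PT and 10.97 and 10.80 on PT-G. For P4HA2 in replicates 3 and 4, the values were 10.78, 10.97, 11.29 and 10.51 against 10.59, 10.26, 10.72 and 10.07. The MED-CTL arrays lay below the p31-43 arrays of the first pair, which overlapped the digest arrays, and the other probe of the gene gave −0.07 and −0.13. TMEM181 gave 10.19 and 10.24 on MED-CTL replicates 1 and 2, against 10.86 to 11.23 on the other arrays of that pair and 11.30 to 11.73 in replicates 3 and 4. The differences between the pairs were −0.91 and −0.71, and without these MED-CTL arrays they were −0.59 and −0.36 and had no nominal p under 0.01.

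When MED-CTL alone served as the reference, the difference between the pairs was called at 41 probes by limma, 39 below 0 and 2 above, of which 17 had a gene symbol. At 38 of them both MED-CTL arrays of replicates 1 and 2 lay below all 14 other arrays and at 2 above, and 0 of the 41 were called in both pairs. FTH1P12, a ferritin pseudogene, had a mean of 11.55 on these 2 arrays and of 14.37 to 14.67 in every other group of either pair. YWHAZ, a 14-3-3 protein, had a mean of 8.54 on 1 probe against 11.70 to 12.15 elsewhere, while another of its probes gave digest effects of 0.02 and −0.10. RPLP0P2, a ribosomal protein pseudogene, had 15.56 against 17.51 to 17.79. With p31-43 alone as the reference, 0 probes were called for the difference by limma and 98 had a nominal p under 0.01. The median intensities of these 2 arrays, 247 and 205, lay within the range of the others, and what sets the arrays apart was not tested.

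**Figure D5:**
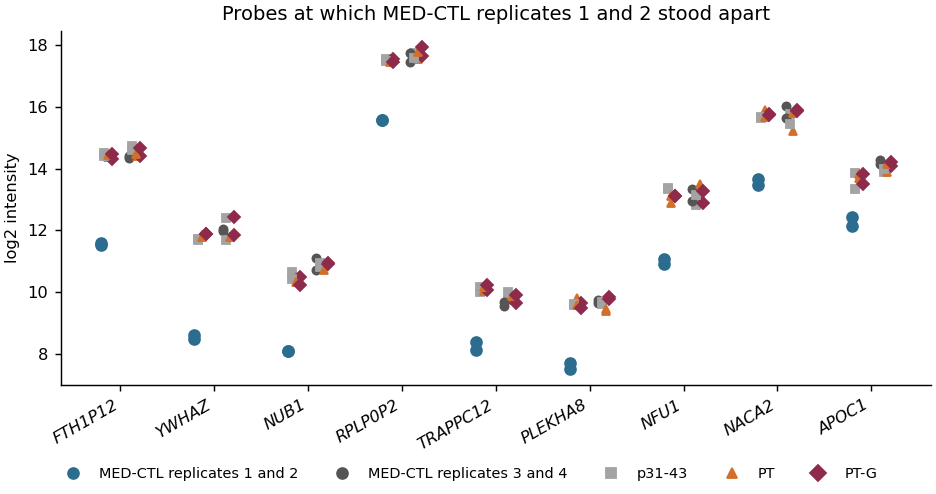
Log2 intensity on each array for 9 probes with a gene symbol called for the difference with MED-CTL alone as the reference. Within each gene, arrays of replicates 1 and 2 are drawn at the left and 3 and 4 at the right, and MED-CTL replicates 1 and 2 lie below the other 14 arrays.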

How the data were processed

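RNA of 16 Caco-2 cultures was hybridised to single-colour Agilent arrays of 45015 spots. The authors' image analysis (Feature Extraction 9.5.3.1 per the file headers) deposited the intensity of each spot, its local background, and marks that tell whether the spot is a control, an outlier or above background. The authors also deposited a log2 table of the median foreground intensity, normalised over all arrays with the quantiles method without background subtraction, which was used here. It leaves low signals compressed, so differences of dim genes are understated.

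The 1639 controls and the 1774 non-control spots marked as outliers were left out and the other spots averaged to 41000 probes, of which 40967 had at least 3 of 4 arrays in each arm of each pair of replicates. Groups and replicate numbers came from the sample titles. The arms (PT and PT-G, MED-CTL and p31-43) and pairs of replicates were fitted as 4 means in limma 3.58.1 (R 4.3.3), with 2-sided moderated tests on 12 residual degrees of freedom and 2.06 from the prior. P values were adjusted over all probes by Benjamini-Hochberg. The contrasts were the digest effect in each pair and their difference (replicates 3 and 4 minus 1 and 2). Precision is limited by how many arrays there were, and 3 spots were saturated.

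Genes named were the 12 that rose and the 8 that fell with the largest smaller effect among those called in both pairs, without overlap of the arms, with a symbol and well above background in the brighter arm, and the 10 largest differences in each direction. As no difference passed the adjustment, the latter were taken at a nominal p under 0.01. Members of the gene lists and markers were named as well. A few list members are not reported here. A gene with several probes was taken in a list by its brightest probe. The comparison, the genes and the lists were chosen with earlier results of these data known. Of 25146 probes with a RefSeq accession, 23434 were matched to a current symbol, and other names are the array's. Alternatives were other scalings and background corrections, a filter on dim probes, kept outlier spots, blocks for replicate number, scan day and slide, other models, single conditions as an arm, and leaving out each array. Added after seeing the data were a block for the run and fits without slide 5 or without MED-CTL replicates 1 and 2. Columns of the authors' own comparisons were not used here.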

Additional observations from a re-analysis of the deposited data

Results flagged for a closer look

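In groups of 4 arrays, an array was looked at when its distance to the nearest other array took up more of the whole range than Dixon's critical value allows. Chance flags about 1 in 20 groups, and 8 of the 159 groups tested were found. For SPRY4, PT replicate 3 was at 10.62 against 10.4 for the nearest digest array, and MED-CTL replicate 3 at 8.5 against 8.77 for the nearest reference array. MED-CTL replicate 3 was also the lowest reference array of its pair for SLC30A2, at 9.5 against 9.64, and for TRMT2A, at 9.52 against 9.92. TMEM151A was lowest on p31-43 replicate 3, at 7.56 against 7.75. PTK6 was highest on p31-43 replicate 2, at 6.79 against 6.53. GPR3 was lowest on p31-43 replicate 4, at 6.28 against 6.8. ZNF341 was lowest of the digest arrays of replicates 1 and 2 on PT-G replicate 1, at 7.5 against 7.68.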

How the results depend on the processing

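At the adjusted threshold the difference between the pairs had 0 calls under each alternative that fitted it except the 4 conditions by pair, with 10, and MED-CTL alone as the reference, with 41. The 10 were all among the 41, and at each of them MED-CTL replicates 1 and 2 lay below the 14 other arrays. The difference was not fitted with each pair alone, and 74 probes had a nominal p under 0.01. Counts of calls in replicates 1 and 2, in replicates 3 and 4 and in both (1051, 1021 and 639 as reported) became 455, 461 and 269 with median scaling, 658, 653 and 396 with the processed signal scaled to its 75th percentile, 3328, 2784 and 1777 with a slide block, 2243, 2582 and 1409 with a run block, 556, 196 and 139 with MED-CTL alone as the reference, 373, 482 and 239 with p31-43 alone, 175, 352 and 110 with PT alone as the digest, 146, 304 and 107 with PT-G alone, 3663, 211 and 187 with each pair fitted alone, and 2342, 2394 and 1392 at a nominal p under 0.01. The 4 conditions by pair gave 603 in replicates 3 and 4 and 389 in both. Without slide 5, replicates 3 and 4 gave 549 and both pairs 394. Without both MED-CTL arrays of replicates 1 and 2, that pair gave 278 and both pairs 234. The cause of these changes was not tested, and fits that leave arrays out also rest on fewer arrays.

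Leaving out each array in turn gave 507 to 1456 calls in replicates 1 and 2, 637 to 1746 in replicates 3 and 4, and 381 to 773 in both, and always 0 for the difference. In replicates 1 and 2 the count moved by over 1.5 times without MED-CTL replicate 1 (700), MED-CTL replicate 2 (657), p31-43 replicate 1 (646), PT replicate 1 (645), PT replicate 2 (590) or PT-G replicate 2 (507). In replicates 3 and 4 it did without PT-G replicate 3 (1746) or PT-G replicate 4 (637), and in both pairs without PT replicate 2 (415) or PT-G replicate 2 (381). The 74 probes with a nominal p under 0.01 for the difference became 48 to 385, the highest without PT-G replicate 3. Of 640 such values for the named genes called in both pairs, 3 lost the threshold, and of 760 under the other alternatives, 50. Of the named differences, 106 of 317 and 128 of 359 lost a nominal p under 0.01, and 0 of all these values changed direction.

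With the replicate number as a block the counts were 1578, 1841 and 990, the last including 633 of the 639, and 162 probes had a nominal p under 0.01 for the difference. Deviations of arrays with the same number correlated at 0.0768, 0.0758, 0.741 and 0.731 between the arms for numbers 1 to 4, so the numbers were not taken to pair the samples. The 2 values of a pair are near equal by construction, since deviations from a mean over 2 numbers or 2 slides are opposite. MED-CTL replicates 1 and 2 lie on the slide of the other groups' replicates 2 and 1. By slide, the first 2 correlations were both 0.708, so the arm means did vary together by run, which the main fit leaves out. Single groups did so unevenly. Taken as deviations from the group means, PT replicate 3, on slide 5, correlated at −0.013 with MED-CTL replicate 3 and 0.139 with p31-43 replicate 3. PT-G replicate 3 gave 0.859 and 0.837. Blocking by run raised the count for the difference below that nominal threshold to 272, against 74 in the main fit. After adjustment there were 0 calls in either.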

Other observations

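Gene groups looked at after the values were seen are given as values only, beside 1.56% of all probes called in both pairs. Of 23 SCAN domain zinc finger genes, a family whose domain mediates pairing with other zinc finger proteins, 7 fell in both pairs (30.4%) and 0 rose, with medians of −0.29 and −0.26. They were ZSCAN26, ZSCAN9, ZSCAN16, ZSCAN21, ZKSCAN2, ZKSCAN3 and ZKSCAN4. ZSCAN9 gave 9.30, 9.71, 9.55 and 9.54 against 8.75, 8.49, 8.63 and 8.66 in replicates 1 and 2, and 10.30, 9.72, 9.74 and 9.81 against 8.57, 8.61, 9.22 and 8.75 in replicates 3 and 4. The arms did not overlap, and the effects were −0.90 and −1.10 (limma, adjusted p = 0.00573 and 0.00127).

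Of 17 genes of the WNT pathway, which maintains intestinal stem cells, 4 fell in both pairs, with medians of −0.27 and −0.21. ASCL2, a stem cell transcription factor, gave 14.02, 14.04, 14.13 and 14.02 against 12.96, 12.85, 13.07 and 12.83 in replicates 1 and 2, and 13.59, 13.54, 13.81 and 13.90 against 12.81, 12.91, 12.92 and 13.11 in replicates 3 and 4. Its effects of −1.12 and −0.77 differed by 0.35 (95% interval 0.08 to 0.62). AXIN2, a feedback inhibitor of the pathway, fell by 0.71 and 0.99, FZD1, a receptor, by 0.96 and 0.83, and WNT11, a ligand, by 0.63 and 0.41. SP5 was called in replicates 1 and 2 alone, with effects of −0.49 and −0.10, and the other 12, LGR5, LEF1 and RNF43 among them, in neither pair. The list had no single direction. Of the 17, 9 had negative effects in both pairs, while SOX9 (0.70 and 0.93), EPHB2, NOTUM and TCF7 had positive ones in both.

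Of 11 cell cycle inhibitors and stress genes, 5 rose in both pairs, CDKN1A, CDKN2D, GDF15, PLK2 and PLK3, with medians of 0.33 and 0.55 over the list. CDKN2C, another inhibitor, was called lower in replicates 1 and 2, with effects of −0.67 and −0.29. CDKN1A, the cell cycle inhibitor p21, rose by 1.25 and 1.31. GDF15, a stress cytokine, gave 15.25, 14.74, 14.77 and 15.22 against 16.01, 15.81, 16.02 and 16.05 in replicates 1 and 2, and 14.34, 14.54, 14.38 and 14.36 against 15.84, 15.90, 15.87 and 15.85 in replicates 3 and 4. Its digest arrays stood at like levels over lower reference arrays in replicates 3 and 4, with effects of 0.98 and 1.46 and a difference of 0.48 (95% interval 0.15 to 0.81). Of 8 prostaglandin genes, PTGS2, the inducible cyclooxygenase, rose by 0.94 and 0.93 and the receptor PTGER2 by 0.84 and 0.96. TCEAL3, TCEAL5 and TCEAL6, close copies of each other whose probes may cross-hybridise, rose by 0.80 to 0.92 in both pairs, and the 6 other TCEAL genes were called in neither.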
